A study of Mus musculus with 2 samples.

Results

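The non-catalytic proteasome genes on the array were taken as those whose array name starts with Psm, a letter from a to g and a digit, apart from the 7 genes of the catalytic beta subunits (Psmb5 to Psmb11). This rule uses names alone and found 38 genes, represented by 60 spotted sequences, among 19505 named genes and 41174 sequences on the array. They were grouped by role as 12 genes of the core particle, 17 of the 19S regulatory particle, 4 of the PA28 and PA200 activators, 3 of assembly chaperones of the 19S base and the gene of the inhibitor protein PI31. The remaining gene, Psmc3ip, carries a Psm name but encodes a meiotic recombination factor and no proteasome subunit, and it is given apart. No assembly chaperone of the core matched by its array name, and those found under other names are given beside the members.

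The proteasome is the protease that degrades ubiquitin-tagged proteins and supplies most peptides presented by MHC class I. Its core particle is a barrel of stacked rings, in which outer rings of alpha subunits gate the entry and inner rings of beta subunits hold the proteolytic sites. The 19S regulatory particle caps the barrel. It recognises and removes ubiquitin and, through a ring of ATPases, unfolds the substrate, whereas PA28 and PA200 are alternative caps. Thymic epithelium is known for exchanging catalytic beta subunits of the core, and the genes described here are those of the structural and regulatory subunits around them.

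Gene expression was measured in thymic stromal cells of C57BL/6 mice, obtained from fetal thymus lobes kept in organ culture with 1.35 mM deoxyguanosine, which removes lymphoid cells, for 8 days from E14.5 fetuses or for 9 days from E15.5 fetuses. The dispersed cells were then grown for 72 h in flat dish culture (2D culture) or in reaggregation thymus organ culture (RTOC), in which the cells are packed again at high density on a membrane. Both groups had been treated with deoxyguanosine, so no sample shows the untreated thymus. RNA of both cultures was hybridised to the same array, 2D culture labelled with Cy3 and RTOC with Cy5, on 1 array for each stage. The ratio of RTOC to 2D culture was therefore measured in 2 arrays, which were used as its 2 replicates. The array, the stage and the days of organ culture cannot be told apart, nor can dye and culture, because no array had the dyes swapped. The sources used here do not say how many fetuses or cultures contributed to each RNA, so p-values rest on the spread between these arrays only. In limma, the spread of each sequence is drawn toward that of all tested sequences. The SE is therefore not set by the printed SD alone.

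Both arrays carried 43379 non-control spots. Sequences well above background made up 53.1% to 60.9% of all sequences per channel. The members were among the bright genes, and 57 of their 60 sequences were well above background in each of the 4 channels. All 38 genes and 58 of the 60 sequences were tested, out of 13506 genes and 23685 sequences tested in all. The number of arrays limits the precision of these ratios.

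Non-catalytic proteasome genes had ratios in a narrow range around 1. Of the 38 genes, 37 (97.4%) had a mean ratio within 2-fold of 1, against 71.3% of the 13506 tested genes. The members were also brighter, with a median log2 signal of 13.8 against 10.5. The part of brightness in this contrast was not tested. The median size of the mean log2 ratio was 0.36 over the members and 0.57 over all tested genes, and the interquartile range was 0.69 against 1.14. Their spread between arrays was not smaller, since the median SD between the arrays was 0.30 on the log2 scale for them and 0.28 for all tested genes. By limma, with adjustment over all tested sequences and a threshold of 0.05, 1 of the 38 member genes was called, Psmd13, which was lower in RTOC, whereas 28.3% of all tested genes were called in either direction. At an unadjusted p under 0.05, 3 member genes (7.89%) were higher and 2 (5.26%) were lower, beside 22.0% and 19.5% of all tested genes. Over sequences, 1 of 58 was higher and 2 were lower, beside 15.3% and 13.6% of all tested sequences. The smallest mean log2 ratio that passed the threshold in any tested gene was 0.88 in size with this processing. An exact sign-flip test over 2 arrays cannot go below 0.5.

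**Figure D1:**
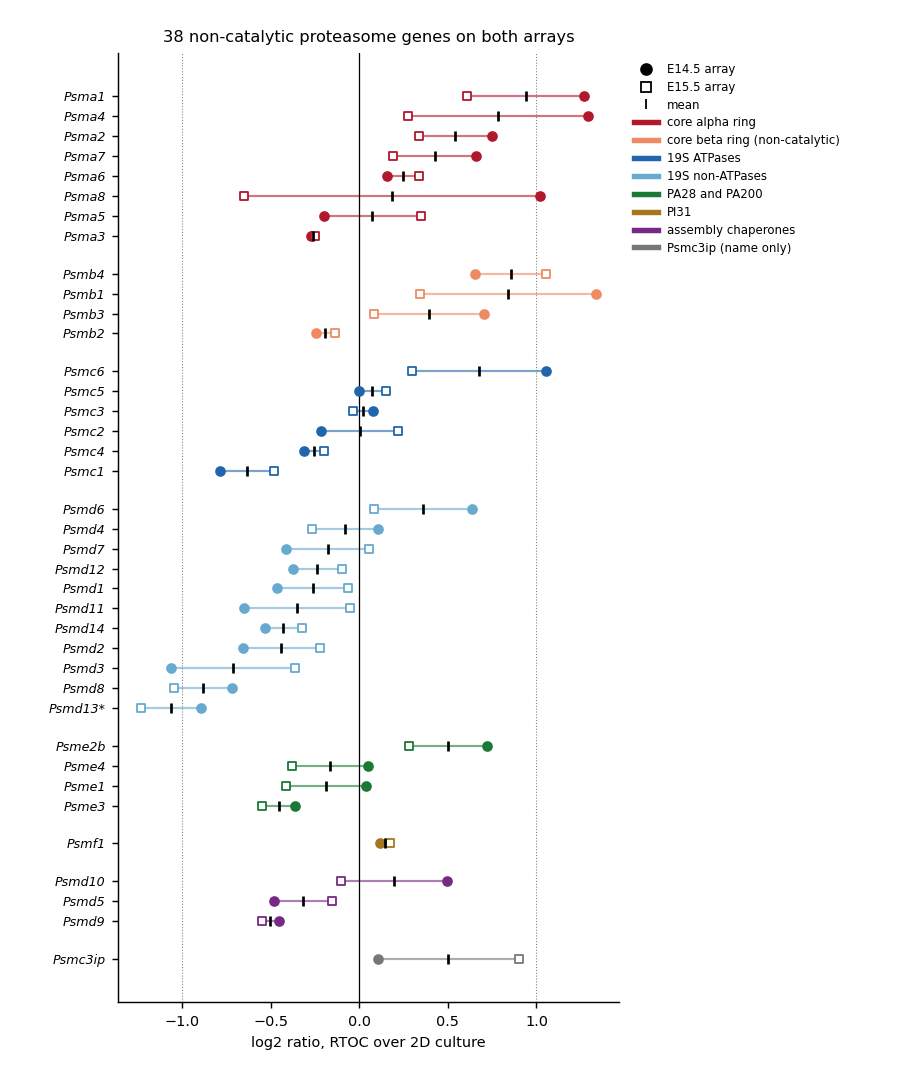
Log2 ratio of RTOC over 2D culture (horizontal axis) of each of the 38 genes, on the E14.5 array (filled circles) and the E15.5 array (open squares), with the mean as a black bar and genes grouped and coloured by role. The asterisk marks the gene past the limma threshold, dotted lines mark 2-fold, and most core genes lie right of 0 while most 19S non-ATPase genes lie left of it.

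Within this narrow range most core genes lay above 0 and most non-ATPase genes of the 19S particle below it, whereas the 19S ATPase genes centred on 0. Of the 12 core genes, 8 were above 0 on both arrays, 2 were below 0 on both and 2 were mixed. Of the 17 genes of the 19S particle, 2 were above 0 on both arrays, 10 were below 0 on both and 5 were mixed. Below 0 on both were 8 of the 11 non-ATPase genes (median log2 ratio -0.35) and 2 of the 6 ATPase genes (median 0.01). Over all tested genes, 40.1% were above 0 on both arrays and 39.5% below 0 on both. The median of the mean log2 ratios was 0.41 for the core (0.68 at E14.5 and 0.30 at E15.5) and -0.26 for the 19S particle (-0.42 and -0.10), with a median of 0.0024 over all tested genes. The medians thus differed by 0.67, by 1.10 at E14.5 and by 0.41 at E15.5. All 12 core genes were above the 19S median at E14.5, and 9 were at E15.5. The distributions overlapped, as 4 of 12 core genes lay above the highest 19S gene by their means and 8 of 17 19S genes below the lowest core gene. This is a description of 2 lists without a test, and apart from Psmd13 no gene of either list passed the threshold by the sequence that stands for it.

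The spotted sequences of the core genes had a median GC content of 40.8% and those of the 19S genes of 43.3%, and the part of this in the difference was not tested. Dye and culture are joined on both arrays, so the part of a dye effect cannot be told apart. Of the 38 genes, 24 had the larger ratio in size on the E14.5 array, 9 of 12 in the core and 12 of 17 in the 19S particle. Across the 38 genes the ratios of the arrays were correlated with Pearson's r = 0.57, and across all tested genes with r = 0.83. Genes on the same arrays are not independent, and the members span a narrower range.

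**Figure D2:**
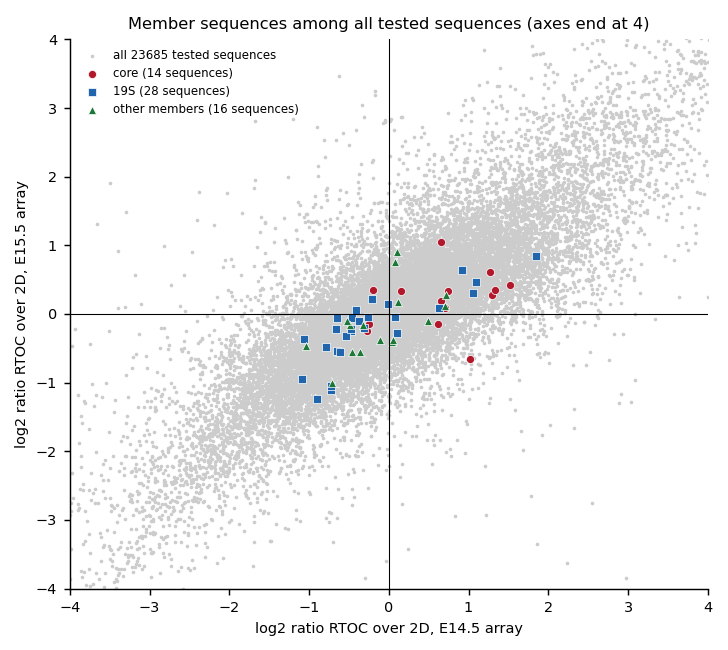
Log2 ratio of RTOC over 2D culture on the E14.5 array (horizontal) against the E15.5 array (vertical) for the 14 tested core sequences (red circles), 28 sequences of the 19S particle (blue squares) and 16 sequences of the other members (green triangles), over all 23685 tested sequences in grey, with axes cut at 4. The members lie near the origin, the core sequences mostly in the upper right and the 19S sequences mostly in the lower left.

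The alpha subunits form the outer rings of the core, where their tails close the entry pore and the regulatory caps dock. Of the 8 alpha genes, 5 were above 0 on both arrays, 1 was below 0 on both and 2 were mixed, with a median log2 ratio of 0.34. Psma1 had the highest mean ratio of all 38 genes, each taken by its brightest sequence. Its normalised signal was 27081 (2D culture) against 65347 (RTOC) at E14.5, and 29044 against 44228 at E15.5. Both RTOC values of Psma1 lay above both 2D values. Its log2 ratio was 1.27 and 0.61, with a mean of 0.94 ± 0.47 (SD, n = 2), a 1.92-fold difference that did not pass the threshold (SE 0.29, limma adjusted p = 0.060).

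Psma4 was represented by 2 sequences with the same direction. The signal of the brighter one was 9348 (2D culture) against 22879 (RTOC) at E14.5, and 10747 against 12995 at E15.5. Its log2 ratios of 1.29 and 0.27 averaged 0.78 (limma adjusted p = 0.129), and the second sequence gave 1.52 and 0.43, averaging 0.97 (limma adjusted p = 0.085). RTOC was the higher culture on both arrays, by far more at E14.5. Psma2 gave 0.75 and 0.34, Psma7 0.66 and 0.19, and Psma6 0.16 and 0.34.

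Psma3 had the lowest mean of the alpha genes and was one of the most even. Its log2 ratios were -0.27 and -0.25, with a mean of -0.26 ± 0.02 (SD, n = 2; limma adjusted p = 0.466). Psma5 was -0.20 at E14.5 and 0.35 at E15.5. Psma8 encodes a variant alpha subunit of the testis and was dim on these arrays. Its signal was 93.2 (2D culture, not well above background) against 189 (RTOC) at E14.5, and 214 against 136 at E15.5. The ratio of Psma8 thus pointed up on one array (1.02) and down on the other (-0.65). It was the only member by its brightest sequence with log2 ratios of at least 0.3 in size in opposite directions, and with normexp and loess its ratios were 0.20 and -0.14, below that size.

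The 4 non-catalytic beta genes encode subunits that complete the inner rings beside the catalytic ones. Of these, 3 were above 0 on both arrays and 1 was below 0 on both, with a median log2 ratio of 0.62. The signal of Psmb4 was 27199 (2D culture) against 42746 (RTOC) at E14.5, and 24963 against 51867 at E15.5. Psmb4 was the one core gene above 0.5 on both arrays with the larger ratio at E15.5, at log2 ratios of 0.65 and 1.06. Their mean was 0.85 ± 0.28 (SD, n = 2), a 1.81-fold difference that did not pass the threshold (SE 0.26, limma adjusted p = 0.062). It passed the threshold with normexp background correction and loess (0.89, limma adjusted p = 0.033).

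Psmb1 had the opposite weighting. Its signal was 15014 (2D culture) against 37916 (RTOC) at E14.5, and 17072 against 21664 at E15.5, which gave log2 ratios of 1.34 and 0.34 and a mean of 0.84 (SE 0.33, limma adjusted p = 0.109). The channels of Psmb1 did not overlap between cultures, but the difference of 0.99 between its arrays was as large as its mean. Psmb3 gave 0.70 and 0.08, and its second sequence averaged 0.24. Psmb2 was the lowest beta gene. Its log2 ratios of -0.25 and -0.14 averaged -0.19 ± 0.08 (SD, n = 2; limma adjusted p = 0.592).

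The catalytic subunits, which replace one another in the same rings, had a wider range. Of their 7 genes, 3 were higher in RTOC, beside 2093 of all 13506 tested genes, the median log2 ratio was 0.79, and the means ran from -0.19 (Psmb7) to 3.92 (Psmb9). The highest non-catalytic core gene, Psma1, was 0.94.

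**Figure D3:**
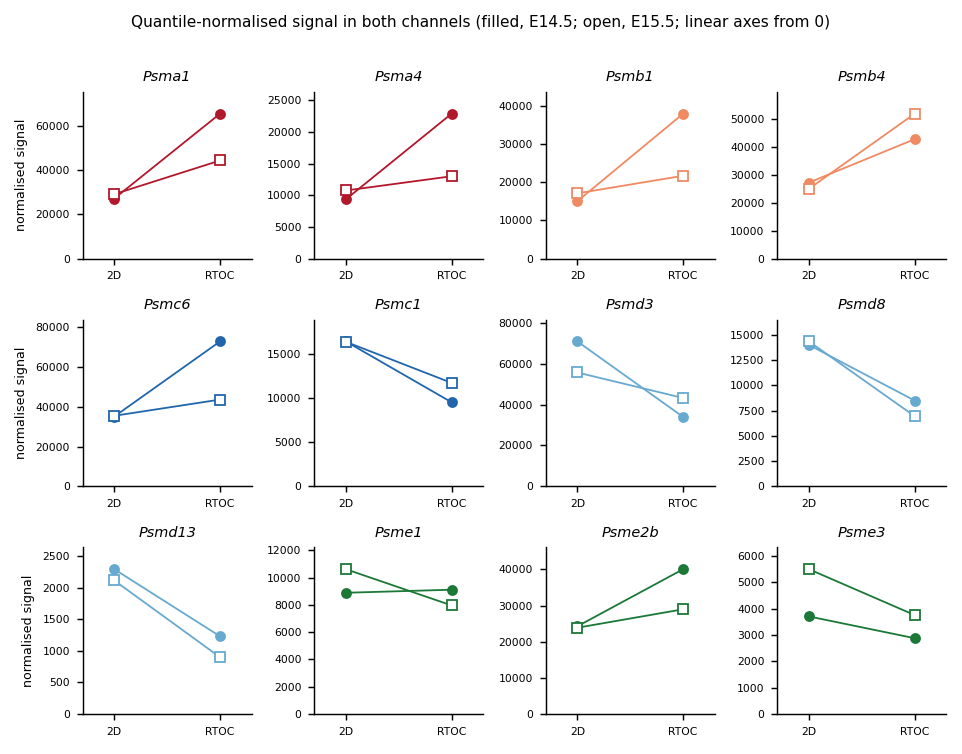
Quantile-normalised signal (vertical axes, linear and starting at 0) in 2D culture and RTOC for 12 members, with lines joining both channels of an array (filled circles, E14.5; open squares, E15.5). The 4 core genes, Psmc6 and Psme2b are higher in RTOC on both arrays, Psmc1, Psmd3, Psmd8, Psmd13 and Psme3 are lower on both, and Psme1 is slightly higher on one array and lower on the other.

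The 19S base contains a ring of ATPases, encoded by Psmc1 to Psmc6, that unfolds substrates and opens the gate of the core. Their median log2 ratio was 0.01, with 1 gene above 0 on both arrays, 2 below 0 on both and 3 mixed. Psmc6 and Psmc1 marked the ends of the list. Psmc6 was spotted as 2 sequences that share no more than a short stretch, of which the first 30 bases are shown because the call for this gene depends on which of them is read.
Psmc6, brighter sequence: gcaggtatgtttgcaattcgtgccgatcat
Psmc6, second sequence: ctattatttcttaggttcaccagtggattc
The signal of the brighter sequence was 35097 (2D culture) against 72861 (RTOC) at E14.5, and 35462 against 43619 at E15.5. Its log2 ratios were 1.05 and 0.30, with a mean of 0.68 that did not pass the threshold. The second sequence had a signal of 4715 (2D culture) against 16993 (RTOC) at E14.5, and 4765 against 8558 at E15.5. Its log2 ratios of 1.85 and 0.84 averaged 1.35 ± 0.71 (SD, n = 2), a value past the threshold (SE 0.33, limma adjusted p = 0.033) and the only member sequence called higher in RTOC. It passed under 4 of 10 alternative settings with a test (adjusted p from 0.021 to 0.431) and not with normexp and loess (1.23, limma adjusted p = 0.069). RTOC was above 2D culture for both sequences on both arrays.

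Psmc1, whose product takes part in opening the gate of the core, was the lowest ATPase gene. Its signal was 16366 (2D culture) against 9493 (RTOC) at E14.5, and 16327 against 11683 at E15.5. Both RTOC values lay below both 2D values, and the mean log2 ratio was -0.63 ± 0.21 (SD, n = 2; SE 0.26, limma adjusted p = 0.120). Psmc4 gave -0.31 and -0.20 and a mean of -0.26, with -0.36 for its second sequence. Psmc3 gave 0.07 and -0.04. Psmc2 and Psmc5 averaged 0.0018 and 0.07 by their brighter sequences, but the second sequences averaged 0.78 and -0.59, neither of which passed the threshold (limma adjusted p = 0.072 and 0.131). With normexp and loess these second sequences averaged 0.24 and -0.48.

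The non-ATPase subunits of the 19S particle carry the ubiquitin receptors, the deubiquitinating enzyme and the scaffold of base and lid. Of their 11 genes, 8 were below 0 on both arrays, 1 was above 0 on both and 2 were mixed, with a median log2 ratio of -0.35 (-0.53 at E14.5 and -0.23 at E15.5). Psmd13, a scaffold subunit of the lid, had the lowest mean of all 38 genes and was the one called by its brightest sequence. Its signal was 2291 (2D culture) against 1230 (RTOC) at E14.5, and 2113 against 899 at E15.5. RTOC was below 2D culture on both arrays and the cultures did not overlap. The log2 ratio of Psmd13 was -0.90 and -1.23, with a mean of -1.07 ± 0.24 (SD, n = 2) at 0.478 of the 2D level (SE 0.26, limma adjusted p = 0.033). Its mean was -0.75 with normexp and loess (limma adjusted p = 0.041). The call was lost with the channels treated as unpaired (limma adjusted p = 0.062), under the methods' t-test, and without the filter on dim sequences (limma adjusted p = 0.135), where 0 of all 41168 sequences were called.
Psmd13, first 30 bases of its only spotted sequence: gaccgatcctaatgtggctcttacttttct

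Psmd8, another lid subunit, came next. Its signal was 13994 (2D culture) against 8483 (RTOC) at E14.5, and 14337 against 6936 at E15.5. The 2D values were nearly equal and both RTOC values lay well below them, with log2 ratios of -0.72 and -1.05 and a mean of -0.88 ± 0.23 (SD, n = 2; SE 0.26, limma adjusted p = 0.054). Psmd8 passed the threshold under 4 of 10 alternative settings with a test, normexp and loess among them (-0.89, limma adjusted p = 0.038). Psmd3, a further scaffold of the lid, had a signal of 70970 (2D culture) against 33979 (RTOC) at E14.5, and 55755 against 43262 at E15.5. Its log2 ratios of -1.06 and -0.37 averaged -0.71 (SE 0.29, limma adjusted p = 0.120).

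Psmd1 and Psmd2 encode the large scaffold subunits of the base. The brighter sequence of Psmd2 gave log2 ratios of -0.66 and -0.23 and a mean of -0.44, which did not pass the threshold. Its second sequence had a signal of 6564 (2D culture) against 3079 (RTOC) at E14.5, and 7219 against 3732 at E15.5. This sequence was lower in RTOC, with a log2 ratio of -1.02 ± 0.10 (SD, n = 2; SE 0.25, limma adjusted p = 0.034), and both sequences pointed the same way on both arrays. It passed under 7 of 10 alternative settings and was lost with channels unpaired (limma adjusted p = 0.058), without the filter on dim sequences (limma adjusted p = 0.118) and under the methods' t-test after adjustment. Psmd1 gave -0.47 and -0.06.

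The deubiquitinating subunit Psmd14 was evenly low, with log2 ratios of -0.53 and -0.33 and a mean of -0.43 by its brighter sequence and -0.58 by its second. Psmd7, its partner in the lid, is described with the sequences that disagree. The ubiquitin receptor gene Psmd4 averaged -0.08 by its brighter sequence (0.11 and -0.27) and -0.92 by a much dimmer one (-0.73 and -1.11, limma adjusted p = 0.0503), which averaged -0.18 with normexp and loess. Of the remaining lid genes, Psmd11 gave -0.65 and -0.05, and Psmd12 -0.37 and -0.10. Psmd6 was the only one of the 11 non-ATPase genes above 0 on both arrays, at 0.63 and 0.08 with a mean of 0.36 (limma adjusted p = 0.367). Sem1, a small lid subunit without a Psm name and so listed with the partners, was also above 0 on both, at 1.24 and 0.59 with a mean of 0.91 (limma adjusted p = 0.063), above the means of all 17 members of the 19S particle.

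PA28 is an ATP-independent cap whose alpha and beta subunits, the products of Psme1 and Psme2, are inducible by interferon-gamma. Psme1 had a signal of 8888 (2D culture) against 9111 (RTOC) at E14.5, and 10614 against 7962 at E15.5. Its cultures overlapped, and the mean log2 ratio was -0.19 ± 0.32 (SD, n = 2; limma adjusted p = 0.623). The array carried no sequence named Psme2 but 2 sequences named as its copy Psme2b, and transcripts of the near-identical pair cannot be told apart here. Their brighter sequence had a signal of 24255 (2D culture) against 40032 (RTOC) at E14.5, and 23860 against 28955 at E15.5. RTOC was the higher culture on both arrays, with log2 ratios of 0.72 and 0.28, a mean of 0.50 (SE 0.27, limma adjusted p = 0.208) and 0.41 for the second sequence.

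Psme3, which encodes the nuclear form of PA28, had a signal of 3704 (2D culture) against 2878 (RTOC) at E14.5, and 5495 against 3755 at E15.5. It was below 0 on both arrays (-0.36 and -0.55), with a mean of -0.46 ± 0.13 (SD, n = 2; limma adjusted p = 0.222). Psme4, the gene of PA200, gave 0.05 and -0.38 by its brightest sequence, -0.11 and -0.38 by its second and -1.04 and -0.46 by the third, whose mean of -0.75 was -0.18 with normexp and loess, while a further one was not well above background and was not tested. None of the activator genes passed the threshold. In the same RNA, the interferon-inducible genes Irf1 (2.02, limma adjusted p = 0.0065) and B2m (0.97, limma adjusted p = 0.038) were higher in RTOC, while Tap1 (0.43), Tap2 (0.82) and Tapbp (0.58), which load peptides on MHC class I, did not pass the threshold (limma adjusted p = 0.250, 0.068 and 0.178).

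The chaperones Psmd5, Psmd9 and Psmd10 hold ATPase subunits during assembly of the 19S base. Psmd9 had a signal of 1166 (2D culture) against 851 (RTOC) at E14.5, and 1178 against 804 at E15.5. Its mean log2 ratio was -0.50 ± 0.07 (SD, n = 2; limma adjusted p = 0.183), with -0.31 for its second sequence. With normexp and loess these 2 sequences of Psmd9 averaged -0.27 and -0.09. Psmd5 gave -0.48 and -0.16, and Psmd10, also known as gankyrin, gave 0.49 and -0.10. Among the assembly chaperones of the core, Psmg1, Psmg2 and Psmg3 were found under older array names and Pomp under its own. No sequence was found for Psmg4. Of Psmg1, Psmg2, Psmg3 and Pomp, none passed the threshold, their median log2 ratio was 0.14, and the means ran from -0.53 (Psmg3) to 0.25 (Psmg1). Psmc3ip, which has only the name in common, gave 0.11 and 0.90, with a mean of 0.50.

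Sequences of 1 gene did not always give 1 ratio. Of the 16 genes with more than 1 tested sequence, 14 had sequences less than 1 apart on the log2 scale and without opposite means of 0.3 or more in size. Psmd7 and Psmf1, the gene of the inhibitor PI31, were the exceptions. The first 30 bases of their sequences are shown, since the ratio given to each gene depends on which is read.
Psmd7, brightest sequence: ttcataattgctaaatggaattcatggatc
Psmd7, second sequence: caaaccaggtccatggcttgaagggactga
Psmd7, dimmest sequence: gtgttcggaagttttacaagataattagtg
Psmf1, brightest sequence: taggtttgggaatgtagataacttggaccc
Psmf1, second sequence: gacctataagaacagtgaggagcttcggtc
Psmf1, dimmest sequence: tttgttattttgcgtgggcagtttttaagt
No bases are in capitals because these sequences were not placed on the transcripts. The brightest and second sequences of Psmd7 averaged -0.18 and -0.35, whereas the dimmest, designed to a cDNA clone and with a stop codon in every frame, gave 1.09 and 0.47 and averaged 0.78 (limma adjusted p = 0.091). Its signal was 513 (2D culture) against 1094 (RTOC) at E14.5, and 438 against 606 at E15.5. Psmf1 averaged 0.14 by its brightest sequence (0.12 and 0.17). The second sequence had a signal of 517 (2D culture) against 316 (RTOC) at E14.5, and 797 against 397 at E15.5, and averaged -0.86 (limma adjusted p = 0.058). The dimmest averaged -0.24. With normexp and loess the 3 sequences of Psmf1 averaged 0.18, -0.41 and -0.0023, which are neither 1 apart nor opposite by 0.3, whereas the dimmest sequence of Psmd7 averaged 0.56 and its second -0.36. Which transcripts each sequence measures was not tested.

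**Figure D4:**
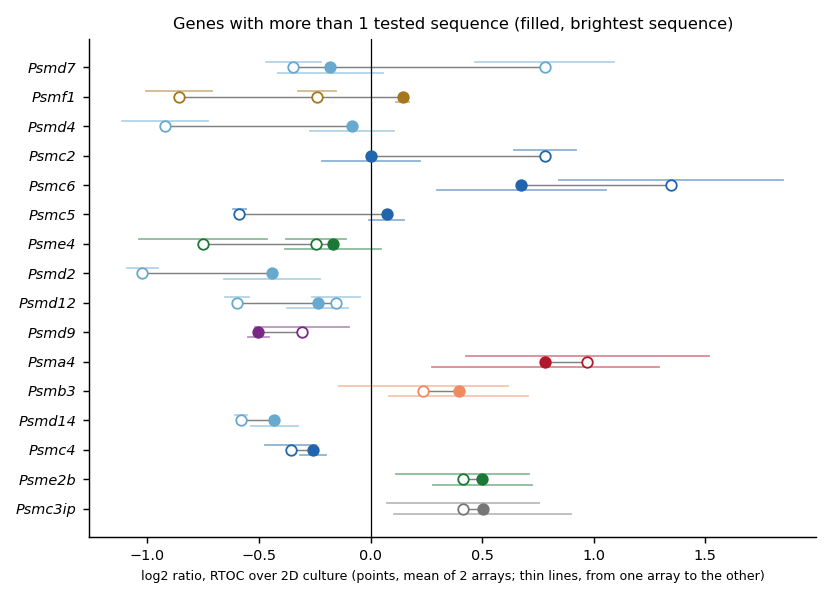
Mean log2 ratio of RTOC over 2D culture (horizontal axis) of each tested sequence of the 16 genes with more than 1, in order of the distance between sequences. Filled points are the brightest sequence, open points the others, and thin coloured lines run from one array to the other. Psmd7 and Psmf1 lie at the top, and the sequences of Psmd7 span 1.13.

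The promoters of the members were searched for short motifs, of which 2 are given, in RefSeq sequence of GRCm38.p6, in windows from 250 bases before to 50 after the transcription start. Windows were found for 32 of the 38 genes, 34 windows in all, and are set against 32851 windows of all genes. The motifs were the core of the antioxidant response element (TGACNNNGC), which is bound by cap'n'collar factors such as Nfe2l1, a known activator of proteasome genes, and the CCAAT box (CCAAT). Both strands were searched. The response element core was in 4 member windows (11.8%) and in 12.4% of all windows, and the CCAAT box in 13 (38.2%) and 37.4%. Within the members, CCAAT was in 6 of 10 core windows and in 4 of 15 windows of 19S genes. Matches upstream of the start are shown for the core genes whose upstream CCAAT lies nearest to it. They are also shown for 3 of the 4 members with the response element core, with the motif in capitals.
Psma1 (chr7:114276195-114276229, minus strand): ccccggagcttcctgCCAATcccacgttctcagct
Psma2 (chr13:14613173-14613207, plus strand): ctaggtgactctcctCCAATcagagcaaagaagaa
Psma6 (chr12:55384178-55384212, plus strand): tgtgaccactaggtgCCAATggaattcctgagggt
Psmb3 (chr11:97703376-97703410, plus strand): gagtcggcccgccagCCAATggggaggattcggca
Psmc6 (chr14:45329582-45329620, plus strand): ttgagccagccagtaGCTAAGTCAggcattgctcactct
Psmd12 (chr11:107479278-107479304, plus strand): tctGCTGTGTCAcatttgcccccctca
Psmd9 (chr5:123228144-123228182, plus strand): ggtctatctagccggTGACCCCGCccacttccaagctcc
In Psmc6 and Psmd12 the response element core lies on the other strand. Psmc6 was above 0 on both arrays and Psmd12 and Psmd9 below 0 on both. In the fourth member with the core, Psme4, the match begins 7 bases before the start and runs across it. Psme4 was mixed (0.05 and -0.38). A match describes letters in a window and is no evidence of binding.

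Of 24 listed partners of the proteasome and genes of ubiquitin supply 23 were tested, and 3 of them passed the threshold as higher and 2 as lower in RTOC, beside 28.3% of all tested genes in either direction, with a median log2 ratio of -0.11. The shuttle factors Rad23b (-1.31, limma adjusted p = 0.029) and Ubqln1 (-1.17, limma adjusted p = 0.038) were the lower ones. Rps27a, which encodes a fusion of ubiquitin and a ribosomal protein (1.96, limma adjusted p = 0.017), Ngly1, an enzyme that processes Nfe2l1 (1.37, limma adjusted p = 0.018), and Zfand5, a proteasome-binding protein (1.0, limma adjusted p = 0.036), were the higher ones. Nfe2l1 itself had a mean of -0.59 (limma adjusted p = 0.131), and Usp14 and Uchl5, deubiquitinating enzymes of the 19S particle, -0.88 and -0.11.

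Marker genes of cell types also differed between the cultures. No cells were counted, and fewer cells of a type and less RNA per cell cannot be told apart. Of all tested genes, 28.3% were called in either direction. Of 6 epithelial markers 3 were higher in RTOC, Foxn1, Krt5 and Ly75 (mean log2 ratios 2.66, 2.91 and 4.47), and Krt14 was lower (-1.86). Epcam was below 0 on both arrays (-0.54 and -0.87) without passing the threshold, and Krt8 was mixed (1.06 and -0.42). Their summed signal was 173170 to 437840 in 2D culture and 444364 to 533573 in RTOC. Krt8 (132043 to 392579 in 2D culture) has the largest part of this sum. Of 4 tested smooth muscle markers 3 were lower (503091 to 588869 against 37376 to 61083), and of 5 endothelial markers 4 were higher (556 to 1470 against 6381 to 9902). The 2D signals of Cdh5, Pecam1 and Tek (16.3 to 84.0) were too dim on either array to count as above background. The size of their ratios is therefore uncertain, and among the called endothelial markers only Emcn was bright enough in each channel. Of 6 macrophage and dendritic cell markers 4 were higher (56390 to 67088 against 167482 to 217982), and of 7 fibroblast markers 3 were higher and 3 lower (327112 to 432128 against 271796 to 290302). The fibroblast sum in 2D culture is mostly Col1a1 and Col1a2, both lower in RTOC, while Dcn, Lum and Pdgfra were higher and the median log2 ratio of the list was 0.58, opposite to the sum. Of 6 T-lineage markers 3 did not pass the filter on dim sequences (Cd4, Cd8a and Rag1), and 1 of the other 3, Cd3g, was higher (344 to 346 against 519 to 1791 summed). The 2D signal of Cd3g at E15.5 (16.5) was likewise too dim to count as above background. The part of these differences in the ratios of the members was not tested.

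**Figure D5:**
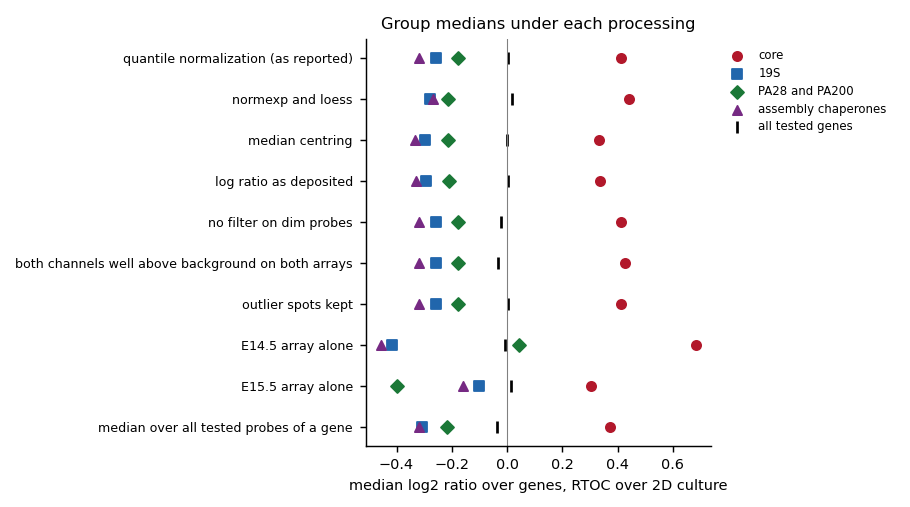
Median log2 ratio of RTOC over 2D culture over the core, 19S, PA28 and PA200, and assembly chaperone genes and over all tested genes (horizontal axis), under each way of processing the arrays (vertical axis). The core median lies above 0 and the 19S and chaperone medians below 0 under each setting drawn, whereas the PA28 and PA200 median is above 0 on the E14.5 array alone.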

How the data were processed

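Thymic stromal cells of C57BL/6 fetuses were compared on 2 two-colour Agilent mouse arrays, RTOC (Cy5) with 2D culture (Cy3), 1 array for E14.5 and 1 for E15.5, both on 1 slide and in 1 scan. The deposited scanner files, made by the authors with Agilent Feature Extraction (9.1.3.1 in the file headers, 11.5.1.1 in the submitters' processing notes), hold spot and background intensity, and a processed intensity that was background-subtracted, detrended and dye-normalized within the array. They also hold a deposited log10 ratio of Cy5 over Cy3. A deposited table of log10 ratios equalled the ratio of the processed signals within 0.001 at all 43379 non-control spots of each array. Its median was -0.019 (E14.5) and -0.070 (E15.5). Per the file headers, flags mark spots well above background.

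The 4 channels of processed intensity were quantile normalized, as the methods of the study state, after control spots and outlier spots (5 and 1) were left out. The log2 ratio was averaged over spots of a sequence and tested against 0 with limma 3.58.1 in R 4.3.3 (lmFit, eBayes), two-sided, with Benjamini-Hochberg adjustment over the 23685 sequences with at least 1 channel well above background on each array. Since both channels share an array, the array acts as the block. Through eBayes, the SE and p-value of a sequence also draw on the variance of all tested sequences (prior SD 0.39, prior df 4.5). A gene is given by its brightest sequence. Of 41174 sequences, 22951 were named by accession, 6659 by symbol and 3109 by an older symbol in a RefSeq table of GRCm38.p6, and 8455 kept the array name. The fit was tested on simulated data. Figures were drawn with matplotlib 3.10.9 in Python 3.11.15.

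The genes named in full are those past the threshold, the highest and lowest of each group, those opposite on the arrays by at least 0.3, those whose sequences disagree (opposite by at least 0.3, or at least 1 apart) and the PA28 and PA200 genes, while the others are given briefly. The members, lists and motifs were chosen with earlier results of these data known. Alternatives were normexp (offset 50) with loess, also with Aquantile, median centring, the deposited log ratio, other filters on dim sequences, outlier spots kept, each array left out, channels unpaired, the methods' t-test, a robust eBayes with a trend, and the median over the sequences of a gene. No sequence was placed on a genome. A listed gene and a motif are not reported here.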

Additional observations from a re-analysis of the deposited data

Results flagged for a closer look

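Psma8, a variant alpha subunit of the testis, was the only member, by its brightest sequence, whose ratio pointed in opposite directions by at least 0.3 in size at the 2 stages. Its log2 ratio of RTOC over 2D culture was 1.02 at E14.5 and -0.65 at E15.5. The difference was not tested, since each stage has 1 array. The sequence was dim, with signals from 93.2 to 214, and the 2D channel of the E14.5 array was not well above background. With normexp and loess its ratios were 0.20 and -0.14, below that size. Of all tested sequences, 4.16% were opposite by this measure.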

How the results depend on the processing

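By brightest sequence, 0 member genes were higher and 1 was lower in RTOC (2093 and 1723 of all 13506 genes, the latter 12.8%), and by all sequences 1 was higher and 2 were lower (15.3% and 13.6% of sequences). The share of all tested genes or sequences called, of the kind counted, moved with the setting too and is given in parentheses. With normexp and loess, also followed by Aquantile, which leaves ratios as they are, 1 gene was higher and 2 were lower (10.5% and 8.38% of genes). With the deposited log ratio 2 genes were lower (13.5% of genes). Without a filter on dim sequences, 0 genes were lower and 0 sequences were higher or lower, but so were 0 of all 41168 sequences, which says nothing of the members. With all 4 channels required to be well above background, 2 genes were higher and 2 lower (15% and 14.9% of genes), and 3 sequences higher and 5 lower (14.2% and 16.1% of sequences). With no replicate block, that is with channels treated as unpaired, 0 genes were lower (7.34% of genes) and 0 sequences were higher or lower (9.42% and 7.67% of sequences). With trend and robust fitting, 2 genes were lower (14.1% of genes), 0 sequences higher and 5 lower (10.6% and 15.1% of sequences). The methods' t-test gave 0 sequences higher and 4 lower unadjusted (6.96% and 7.99% of sequences), and after Benjamini-Hochberg adjustment 0 sequences higher or lower (0.0127% and 0.00422% of sequences) and 0 genes lower (0% of genes), which again says nothing of the members. The cause of the shifts was not tested. Psmd13 passed under 6 of 10 such settings, those with and without Aquantile counted once (adjusted p from 0.022 to 0.359), Psmd8 under 4 (0.038 to 0.364), Psmb4 under 2 (0.033 to 0.382) and Psma1 under 1 (0.042 to 0.425). Psma3 had p = 0.031 by the methods' t-test before adjustment, over the 2 arrays, where an exact sign-flip test cannot go below 0.5.

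Leaving out 1 array moved the core median between 0.30 (E15.5 array alone) and 0.68 (E14.5 array alone), the 19S median between -0.42 and -0.10, the PA28 and PA200 median between -0.40 and 0.04, the assembly chaperone median between -0.46 and -0.16, and the difference of core and 19S between 0.41 and 1.10. Under the other settings that difference was 0.63 to 0.72. The median over all sequences of a gene in place of the brightest moved 5 genes by more than the SD between their arrays (Psmc2 to 0.39, Psmc5 to -0.26, Psmd4 to -0.50, Psmd9 to -0.41 and Psmf1 to -0.24). With 2 arrays and no dye swap, the smallest size called over all sequences was 0.88 as reported and 0.61 with normexp and loess.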
